A study of Mus musculus with 12 samples.

Results

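The expression of 10 genes of the Wnt pathway was examined in RNA-seq values of mouse embryonic fibroblasts (MEF). They comprise the ligands Wnt5a and Wnt4, the secreted antagonists Sfrp1, Sfrp2, Dkk2 and Dkk3, the receptors Fzd1 and Fzd2, the co-receptor Lrp6 and the feedback gene Axin2. The genes were taken by name, and all 10 are listed in both deposited tables, among 43280 entries in the table of the IDH2 mutant and 23930 in that of the 2-HG treatment. They belong to a wider list of 99 Wnt pathway genes, the other 89 of which are described after them by role.

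All groups were of C57BL/6 fibroblasts, taken at embryonic day 13.5 and grown in culture until they became immortal spontaneously. 2MUT cells stably expressed FLAG-tagged human IDH2 with the mutation R172S after retroviral transduction, with the empty vector in Control cells, and both were selected with puromycin. In the other experiment, cells were exposed for 24 h to 300 μM of membrane-permeant 2-HG, 2-HG(+), or to DMSO according to the labels, 2-HG(-). The paper calls the latter cells non-treated, so whether the solvent is part of the 2-HG change cannot be told. Each group had 3 libraries, and no library of cells expressing wild-type IDH2 was analysed here. Nothing in the labels says that the libraries of a group came from separate cultures, so the p-values measure the spread between libraries, which may be technical. The question of both comparisons is what the mutant enzyme, or the metabolite it makes, does to gene expression.

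Wnt proteins are lipid-modified secreted ligands that bind Frizzled receptors. With the co-receptors Lrp5 or Lrp6 they stop the degradation of β-catenin, which then acts with TCF and LEF factors on target genes, whereas Wnt5a is best known for signalling through Ror receptors without β-catenin. Sfrp proteins bind Wnts outside the cell, Dkk1 and Dkk2 bind Lrp5 and Lrp6, and Axin2 is both a β-catenin target in many tissues and a scaffold of the complex that degrades β-catenin. In fibroblasts the pathway is known for its part in growth and matrix production.

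The libraries held between 6472439 and 7313602 reads on genes in the mutant experiment and between 14959318 and 18363768 in the 2-HG experiment. A level of 3 reads was taken as the limit of detection, which is 0.41 to 0.464 RPM per library in the former and 0.163 to 0.201 RPM in the latter, where RPM is the reads on a gene scaled to 1000000 reads counted. In each group 7 of 8 fibroblast markers had a mean of at least 1 RPM, and all 6 epithelial markers stayed under it. The remaining fibroblast marker, Prrx1, was under 1 RPM in Control and 2MUT and has no entry in the 2-HG experiment. The summed fibroblast markers ranged from 10814 to 11790 RPM in Control and from 7157 to 7867 RPM in 2MUT, and from 20326 to 21851 RPM in 2-HG(-) and 13882 to 15197 RPM in 2-HG(+), so the sums were lower in both changed groups. The sums are made up mostly of collagen genes, and single markers differed, since Thy1 fell from 80.4 to 24.2 RPM in 2MUT but rose from 2.76 to 5.23 RPM with 2-HG. Of 4 neural markers 3 had at least 1 RPM in each group, and their sum ranged from 59.6 to 72.6 RPM in Control and 46.4 to 55.6 RPM in 2MUT, and from 39 to 47.6 RPM in 2-HG(-) and 58.9 to 63.7 RPM in 2-HG(+), mostly from Nes. Here too single markers differed, since Tubb3 had 9.09 RPM in Control and 12.1 RPM in 2MUT, and Map2 had 14.1 RPM in 2-HG(-) and 6.99 RPM in 2-HG(+). The haematopoietic sum, mostly Cd68, ranged from 12.1 to 14.6 RPM in 2-HG(-) and 8.79 to 11 RPM in 2-HG(+), and overlapped between Control and 2MUT, as the endothelial and skeletal muscle sums, under 5 RPM, did in both comparisons. The part of these markers in the results was not tested. The mouse Idh2 gene had 77.3 ± 5.54 RPM with the empty vector against 49.6 ± 6.39 RPM with the mutant (SD, n = 3 each), which does not check the label, since the transgene is human. In bulk RNA, fewer cells expressing a gene and less RNA per cell cannot be told apart.

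Changes were tested with limma on log2(RPM + 1) after removal of genes whose mean was under 1 RPM, and a Benjamini-Hochberg adjusted p-value under 0.05 over all genes tested was the threshold. Of the 10 genes, 8 were tested in the 2MUT comparison. There, 3 were higher and 1 was lower, beside 16.5% and 17.3% of all 11065 genes tested. Their median log2 fold change was 0.29, beside 0.01 for all genes. In the 2-HG comparison 7 were tested, with 0 higher and 5 lower, beside 16.1% and 16.7% of 10384 genes, with a median of -1.07 beside -0.02 for all genes. At an unadjusted p under 0.05 and by edgeR on reads recovered from RPM, the higher members also numbered 0 with 2-HG. At an adjusted p-value under 0.05, 33.8% of all genes passed in the former and 32.8% in the latter in either direction. The 10 genes were proposed with results of these data known, so these counts are a description.

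**Figure D1:**
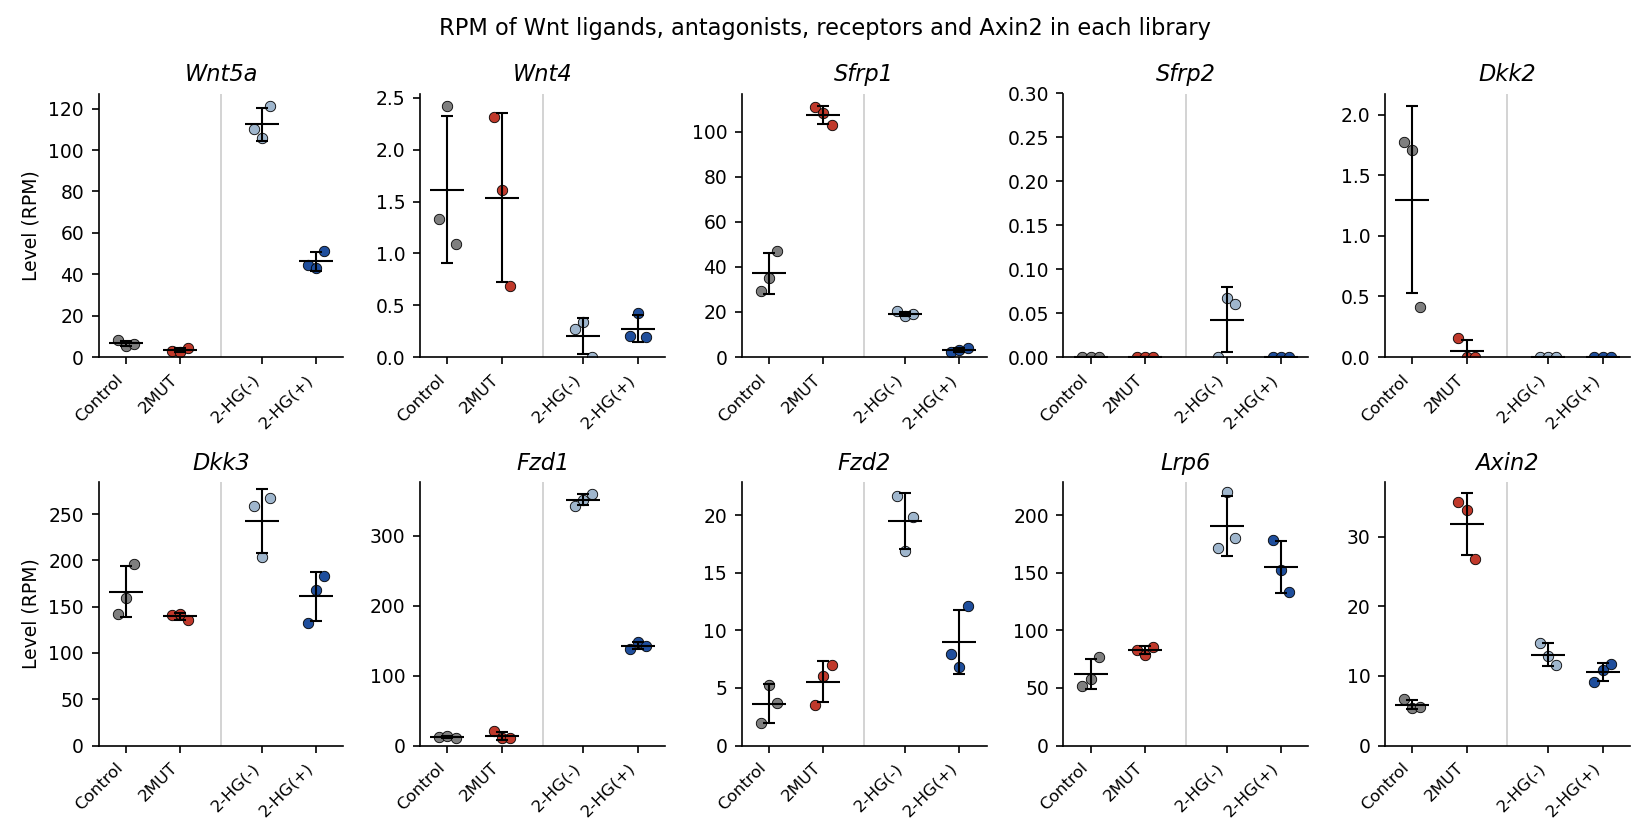
RPM of the 10 genes in each library (points), with the mean and SD of 3 libraries (bars), on linear axes that start at 0 and differ between genes. Sfrp1 and Axin2 are higher in 2MUT than in Control, Wnt5a, Fzd1, Fzd2 and Sfrp1 are lower in 2-HG(+) than in 2-HG(-), and Sfrp2 and Dkk2 are at or near 0 in most libraries.

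Axin2 showed the largest log2 fold change of the 8 genes tested in 2MUT. It lies on chromosome 11 from 108920349 to 108950783 in GRCm38. Its level was 6.66, 5.41 and 5.61 RPM in the Control libraries and 35.1, 33.8 and 26.8 RPM in the 2MUT libraries. Every 2MUT library was thus above every Control library. The mean rose 5.42-fold, from 5.89 ± 0.67 RPM to 31.9 ± 4.44 RPM (SD, n = 3 each; log2 fold change 2.25, SE 0.17, limma adjusted p = 4.9e-06). The antisense gene Gm11670 overlaps Axin2 and had at most 1 read in a library of that table. With 2-HG, Axin2 was 14.8, 12.8 and 11.5 RPM without and 9.12, 10.8 and 11.7 RPM with the compound, and these ranges overlapped. The log2 fold change was -0.28 with a 95% interval of -0.61 to 0.04 (limma adjusted p = 0.17). The changes differed by 2.53 on the log2 scale (95% interval 2.07 to 3.00, limma's test of the difference over 9594 genes, adjusted p = 1.1e-06), in a test that called 39.4% of all genes.

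RefSeq promoters of GRCm38.p6 were matched for 5 of the 10 genes, Wnt4, Sfrp2, Dkk2, Fzd1 and Axin2. The 250 bases before the start site are shown for Axin2 and Fzd1, the matched genes with the largest rise and the largest fall among those tested, so that the promoters of genes that moved in different comparisons can be compared. Axin2 is read on the forward strand of chr11:108920099-108920348 and Fzd1 on the reverse strand of chr5:4758217-4758466, each 5′ to 3′ with the RefSeq start site after the last base, which for Fzd1 lies before the GENCODE start. Capitals mark a GC box, GGGCGG or its reverse complement CCGCCC:
Axin2: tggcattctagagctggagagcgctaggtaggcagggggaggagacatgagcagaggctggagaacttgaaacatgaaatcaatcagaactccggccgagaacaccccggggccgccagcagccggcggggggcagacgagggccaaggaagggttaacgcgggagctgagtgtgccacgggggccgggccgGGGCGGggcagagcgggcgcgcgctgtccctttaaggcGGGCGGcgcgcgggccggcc
Fzd1: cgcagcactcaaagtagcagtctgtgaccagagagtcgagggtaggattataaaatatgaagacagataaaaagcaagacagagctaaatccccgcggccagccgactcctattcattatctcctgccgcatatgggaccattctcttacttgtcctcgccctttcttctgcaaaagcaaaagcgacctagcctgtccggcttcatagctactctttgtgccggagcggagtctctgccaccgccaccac
Axin2 holds 2 GC boxes, at positions -58 and -20 from the start, 69.2% G and C and 24 CpG, while Fzd1 holds 0 GC boxes, 51.2% G and C and 12 CpG. Among 32851 promoters, 32.7% hold a GC box in these 250 bases, and the median content of G and C is 52.4%. The TCF motifs CTTTGAT and CTTTGTT were searched on both strands of the same bases, where 8.06% of all promoters hold at least 1 of them, and were found in none of the 5 matched promoters. No TCF motif can match at the same position as a GC box, and a match or its lack describes this window only.

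The ligand Wnt5a was lower in both comparisons. It lies on chromosome 14 from 28504750 to 28527448. In the mutant experiment its level was low, with 7.99, 5.41 and 6.29 RPM in Control and 3.09, 2.63 and 4.27 RPM in 2MUT, from 138 and 69 reads in all. The groups did not overlap, and the mean fell 1.97-fold, from 6.56 ± 1.31 RPM to 3.33 ± 0.842 RPM (SD, n = 3 each; log2 fold change -0.81, SE 0.23, limma adjusted p = 0.018). The call was lost in limma's test without the first Control library (adjusted p = 0.071), the first 2MUT library (adjusted p = 0.054) or the second 2MUT library (adjusted p = 0.07). It was also lost with no filter on low values (limma adjusted p = 0.057) and with the unmoderated test (adjusted p = 0.072). In the 2-HG experiment Wnt5a was 110, 106 and 121 RPM in 2-HG(-) and 44.6, 42.8 and 51.2 RPM in 2-HG(+), again with no overlap. The mean fell 2.43-fold (log2 fold change -1.27, SE 0.11, limma adjusted p = 3.4e-05). The difference between these falls was 0.46 (95% interval -0.04 to 0.95, adjusted p = 0.13 in limma's test of the difference), short of the threshold. Gm2670, an antisense gene that overlaps Wnt5a, had 0 reads in the table of the mutant experiment.

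Wnt4, a ligand known from kidney and gonad development, was near the limit of detection. It is on chromosome 4 from 137277489 to 137299726. In Control it had 9, 17 and 8 reads and in 2MUT 15, 11 and 5 reads, or between 0.688 and 2.42 RPM, and the groups overlapped. Its log2 fold change was -0.06 with a 95% interval of -0.75 to 0.62 (limma adjusted p = 0.9), and it turned to 0.15 or 0.20 without the second Control or the third 2MUT library. In the 2-HG experiment Wnt4 was not tested, since its libraries held 5, 5 and 0 reads without the compound and 3, 7 and 3 reads with it.

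The antagonist Sfrp1 moved in opposite directions in the comparisons. It lies on chromosome 8 from 23411502 to 23449632 and is annotated with 3 exons. Its level was 29.3, 35.2 and 46.9 RPM in Control and 111, 108 and 103 RPM in 2MUT, so that the lowest 2MUT library was above the highest Control library. The mean rose 2.89-fold, from 37.1 ± 8.96 RPM to 107 ± 4.1 RPM (SD, n = 3 each; log2 fold change 1.53, SE 0.16, limma adjusted p = 3.9e-05). With 2-HG the levels were 20.3, 18.1 and 18.9 RPM without and 2.31, 3.01 and 3.92 RPM with the compound. All 3 2-HG(+) libraries were far below those of 2-HG(-), and the mean fell 6.2-fold (log2 fold change -2.32, SE 0.16, limma adjusted p = 1.1e-05). This was the largest log2 fold change of the 7 genes tested with 2-HG. The changes differed by 3.85 (95% interval 3.33 to 4.37, limma's difference test, adjusted p = 7.3e-08). Both calls held in each of the 16 alternative fits of either comparison.

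The other antagonists changed less or were hardly detected. Dkk3, on chromosome 7 from 112116017 to 112159057, is a divergent member of the Dkk family whose binding to Lrp6 is less clear. It was 142, 160 and 196 RPM in Control and 141, 143 and 135 RPM in 2MUT, with overlap and a log2 fold change of -0.24 (95% interval -0.50 to 0.03, limma adjusted p = 0.15). Without the first Control library this became -0.34 and passed the threshold (limma adjusted p = 0.045). In 2-HG(-) it was 259, 204 and 267 RPM and in 2-HG(+) 132, 168 and 184 RPM, with no overlap and a log2 fold change of -0.59 (SE 0.15, limma adjusted p = 0.013). That call was lost without the third 2-HG(-) library (limma adjusted p = 0.06) and with the unmoderated test (adjusted p = 0.1).

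Dkk2, on chromosome 3 from 132085292 to 132180304, had 12, 12 and 3 reads in Control and 1, 0 and 0 reads in 2MUT, and its mean of the 6 libraries was under the filter of 1 RPM. The summed reads, 27 against 1, gave a ratio of 26.3 for Control over 2MUT with an exact 95% interval of 4.34 to 1078, which covers counting error only. With no filter, the log2 fold change was -1.07 (SE 0.25, limma adjusted p = 0.013). In all 6 libraries of the 2-HG experiment Dkk2 was at 0 reads, where a count of 0 allows up to 0.0600 RPM over the 2-HG(-) libraries and 0.0637 RPM over the 2-HG(+) libraries. Sfrp2, also on chromosome 3 from 83766321 to 83774316, had 0 reads in the mutant experiment and a total of 2 reads in 2-HG(-) and 0 in 2-HG(+). A difference in Sfrp2 was therefore not detectable at this depth. Gm26771, antisense to it, had 0 reads in the mutant experiment.

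The receptors Fzd1 and Fzd2 were lower with 2-HG. Each is encoded by a single exon, Fzd1 on chromosome 5 from 4753839 to 4758035 and Fzd2 on chromosome 11 from 102604396 to 102608058. Fzd1 was 343, 352 and 359 RPM in 2-HG(-) and 137, 147 and 143 RPM in 2-HG(+). The libraries within each group lay close together, and the mean fell 2.46-fold, from 351 ± 7.93 RPM to 143 ± 5.07 RPM (SD, n = 3 each; log2 fold change -1.30, SE 0.09, limma adjusted p = 7.2e-06). Fzd2 was 21.7, 16.9 and 19.9 RPM in 2-HG(-) and 7.93, 6.85 and 12.2 RPM in 2-HG(+), a fall of 2.17-fold with no overlap. Its log2 fold change was -1.07 (SE 0.20, limma adjusted p = 0.0028), a call lost with the unmoderated test (adjusted p = 0.054).

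In 2MUT neither receptor passed the threshold. Fzd1 was 12, 13.4 and 10.5 RPM in Control and 20.2, 11.3 and 10.2 RPM in 2MUT, where a single library stood above the rest. The log2 fold change was 0.15 (95% interval -0.37 to 0.66, limma adjusted p = 0.67), and it was -0.14 without that library. Fzd2 was 1.92, 5.27 and 3.69 RPM in Control and 3.55, 6 and 7.02 RPM in 2MUT, with overlap and a log2 fold change of 0.52 (SE 0.31, limma adjusted p = 0.21). The changes differed between the comparisons by 1.44 for Fzd1 (95% interval 0.88 to 2.00) and 1.59 for Fzd2 (95% interval 0.73 to 2.45), with adjusted p-values of 0.0007 and 0.0063 in limma's test of the difference.

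The co-receptor Lrp6, on chromosome 6 from 134446476 to 134566965, changed little. It was 51.5, 57.5 and 76.6 RPM in Control and 83.3, 78.8 and 85.6 RPM in 2MUT. The groups did not overlap, but the highest Control library came within 2.2 RPM of the lowest 2MUT library. The log2 fold change was 0.43 (SE 0.14, limma adjusted p = 0.039), and it passed the threshold in just 1 of the 6 fits that left out a library, that without the third Control library. The call was also lost with no filter on low values (adjusted p = 0.058), with no mean-variance trend (adjusted p = 0.083) and with the unmoderated test (adjusted p = 0.16). With 2-HG it was 172, 220 and 180 RPM without and 178, 152 and 133 RPM with the compound, and the log2 fold change was -0.30 (SE 0.13, limma adjusted p = 0.12). Without the first 2-HG(+) library it was -0.41 and passed (limma adjusted p = 0.039). The changes differed by 0.73 (95% interval 0.28 to 1.18, limma's difference test, adjusted p = 0.014), which was lost with no filter on low values (limma adjusted p = 0.059).

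**Figure D2:**
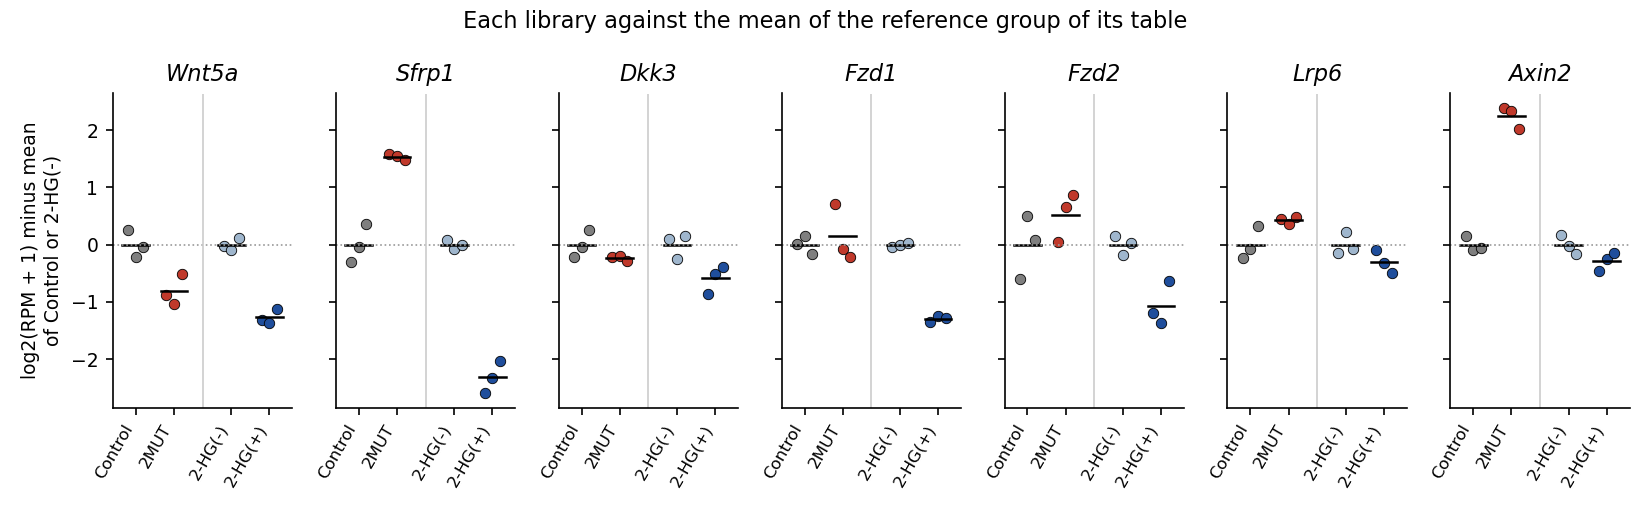
Level of the 7 genes tested in both comparisons in each library, as log2(RPM + 1) minus the mean of the Control or 2-HG(-) libraries of the same table, with group means as lines. Sfrp1 lies above 0 in the 3 2MUT libraries and below 0 in the 3 2-HG(+) libraries, while Wnt5a lies below 0 in both.

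**Figure D3:**
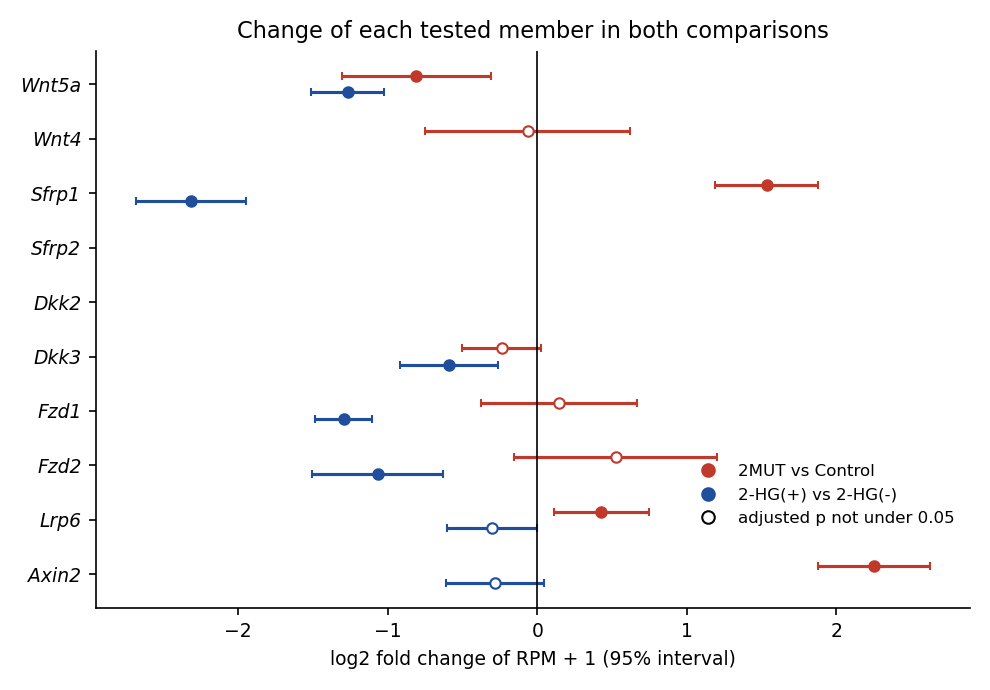
Log2 fold change of RPM + 1 with 95% interval from limma for each tested gene, 2MUT against Control in red and 2-HG(+) against 2-HG(-) in blue, with open points where the adjusted p-value was not under 0.05. Of the 7 genes tested in both, Sfrp1 passed in opposite directions, Wnt5a passed downward in both, and 5 differed between the comparisons, beside 39.4% of all genes in that test.

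Levels in the reference groups of the experiments were far apart for some genes. Fzd1 had a mean of 12 RPM in Control and 351 RPM in 2-HG(-), a ratio of 29.3, and Wnt5a had 6.56 and 113 RPM, a ratio of 17.1. Wnt4 was in the other direction, at 1.62 and 0.202 RPM, and Dkk3 was closer, at 166 and 243 RPM. The tables were normalized separately over different sets of entries and the cells differed in vector and treatment, which cannot be told apart here, so no test was made.

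The pathway as a whole was followed on the wider list, which includes the 10 genes. This list too was chosen with earlier results of these data known, so its counts, also by role, are a description. In 2MUT, 63 of the 99 genes could be tested, and 17 rose while 10 fell, or 42.9% beside 33.8% of all genes. The median log2 fold change of these genes was 0.03. With 2-HG, 98 were listed and 59 could be tested, and 3 rose while 23 fell, or 44.1% beside 32.8%, with a median of -0.30. Without the 10 genes, 14 of 55 were higher and 9 lower in 2MUT (41.8%, median 0.02), and 3 of 52 were higher and 18 lower with 2-HG (40.4%, median -0.25). The plot of the wider list by role shows where these calls lie.

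**Figure D4:**
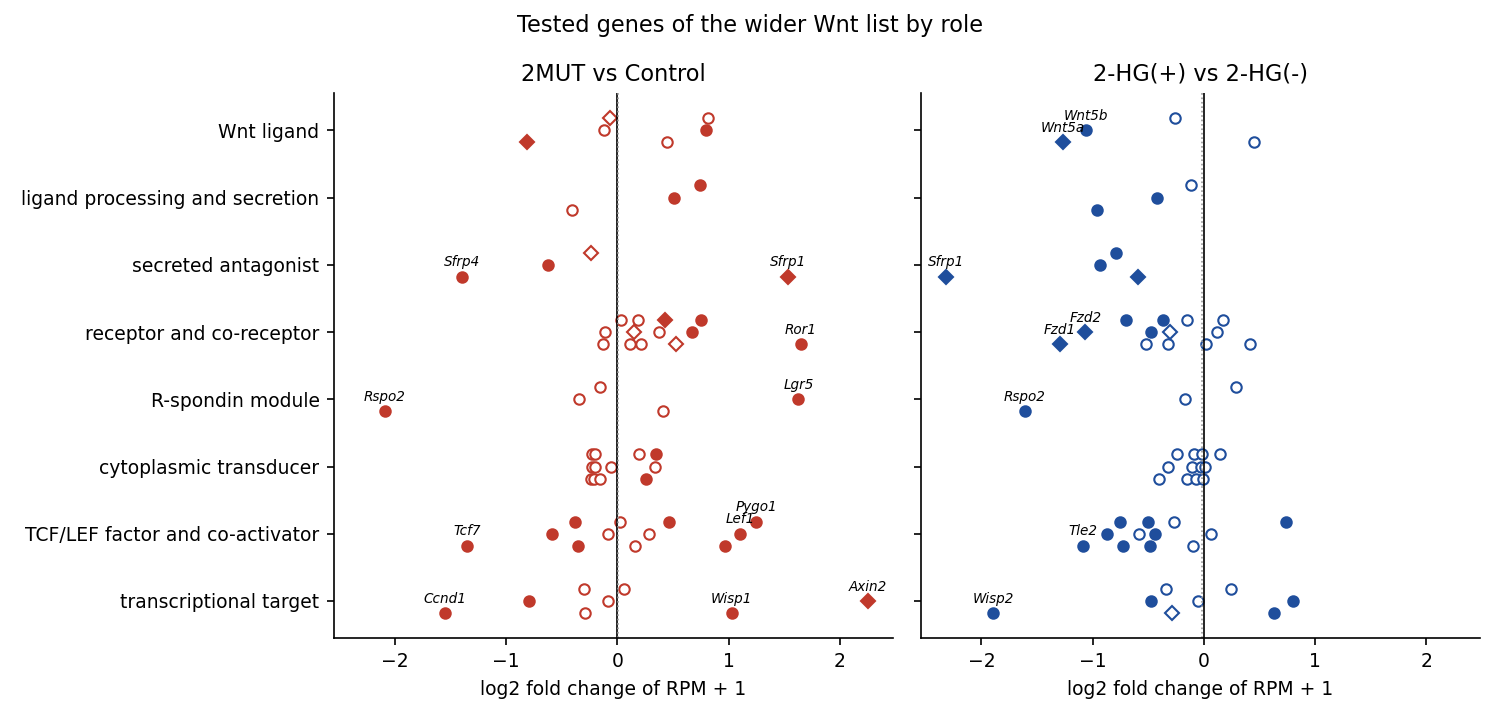
Log2 fold change of RPM + 1 for the tested genes of the wider Wnt list, 63 in 2MUT (left) and 59 with 2-HG (right), by role. Diamonds are the 10 genes described first, filled symbols have an adjusted p-value under 0.05, and the dotted line is the median of all genes tested. With 2-HG, filled symbols lie left of 0 for 23 genes and right of it for 3.

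Most Wnt ligands were under the filter, 13 of 19 in the mutant and 15 of 19 in the 2-HG experiment. Among those tested, the level of Wnt5b, a close relative of Wnt5a, fell from 13 ± 1.07 RPM without 2-HG to 5.78 ± 1.22 RPM with it (SD, n = 3 each; log2 fold change -1.06, limma adjusted p = 0.0011). In 2MUT, Wnt5b had a log2 fold change of -0.12 (adjusted p = 0.61 by limma). Of the 3 genes of ligand processing and secretion, Notum and Wls passed in opposite directions in the comparisons, and Porcn, which attaches the lipid to Wnt proteins and was named after its values were seen, passed in neither (log2 fold changes -0.41 and -0.11, limma adjusted p = 0.12 and 0.52). Notum, an extracellular enzyme that removes the lipid of Wnt proteins, rose in 2MUT from 53.5 to 89.8 RPM and fell with 2-HG from 121 to 61.2 RPM, with log2 fold changes of 0.74 and -0.96 (limma, adjusted p = 0.00096 and 0.00018). Wls, which carries Wnt proteins to the cell surface, had log2 fold changes of 0.51 and -0.42 (limma, adjusted p = 0.014 and 0.016), and neither call was stable. That with 2-HG was lost with quantile normalization (adjusted p = 0.065), with no filter on low values (adjusted p = 0.11), without the third 2-HG(-) or without the second 2-HG(+) library, and that in 2MUT with no mean-variance trend (adjusted p = 0.051), with the unmoderated test (adjusted p = 0.12) and without the first or the third 2MUT library, by limma except for the unmoderated test.

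Of 14 secreted antagonists, 4 were tested in each comparison. All 4 were lower with 2-HG, namely Sfrp1, Dkk3, Sfrp4 and Igfbp4, while in 2MUT 1 was higher and 2 were lower. Of all genes tested, 16.7% were lower with 2-HG, and 16.5% were higher and 17.3% lower in 2MUT. Sfrp1 and Dkk3 are among the 10 genes proposed with results known, and the wider list that holds Sfrp4 and Igfbp4 was also chosen with results known. Sfrp4 was lower in 2MUT, at 4.88 ± 0.901 RPM against 14.4 ± 2.15 RPM in Control, and in 2-HG(+), at 1.19 ± 0.133 RPM against 2.87 ± 1.06 RPM (SD, n = 3 each). The log2 fold changes were -1.39 and -0.79 (limma, adjusted p = 0.00035 and 0.014). Sfrp4 had just 16, 22 and 18 reads in 2-HG(+). With the unmoderated test the 2-HG calls of Sfrp4 (adjusted p = 0.087) and Dkk3 (adjusted p = 0.1) were lost. In 2MUT, Sfrp1 and Sfrp4 thus changed in opposite directions. Igfbp4, an IGF-binding protein that can also block Frizzled and Lrp6, fell by 0.63 and 0.94 in 2MUT and 2-HG(+) on that scale (limma, adjusted p = 0.0023 and 0.00043).

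Of 13 receptors and co-receptors tested in each comparison, 4 passed in 2MUT, each of them higher, and 5 passed with 2-HG by limma, each of them lower. With 2-HG, 1 of the genes was higher at an unadjusted p under 0.05, and DESeq2 called 1 higher and 4 lower. The shares by limma, of 30.8% and 38.5%, were near those of all genes tested, 33.8% and 32.8%. Ror1, a receptor for Wnt5a, was 3.4, 4.13 and 5.33 RPM in Control and 15.1, 14.9 and 16.1 RPM in 2MUT. The groups were well apart, and the log2 fold change was 1.65 (SE 0.19, limma adjusted p = 9.7e-05). With 2-HG its log2 fold change was -0.52 (limma adjusted p = 0.089). Kremen1, a receptor for Dkk proteins, rose by 0.75 in 2MUT and had a log2 fold change of -0.70 with 2-HG (limma, adjusted p = 0.0015 and 0.009). The latter call was lost with the unmoderated test (adjusted p = 0.069). Rspo2, an R-spondin that raises Wnt receptor levels, had 17.5 ± 5.83 RPM in Control against 3.23 ± 0.802 RPM in 2MUT, and 42.5 ± 0.836 RPM in 2-HG(-) against 13.3 ± 1.51 RPM in 2-HG(+) (SD, n = 3 each). Its log2 fold changes were -2.09 and -1.61 (limma, adjusted p = 0.00017 and 1.6e-05), the largest fall among the tested genes of the wider list in 2MUT and, after Sfrp1 and Wisp2, with 2-HG. Rspo3, under the filter and named after its values were seen, was at 1, 1 and 4 reads with 2-HG against 29, 24 and 15 without it.

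Downstream of the receptors, 2 of the 12 cytoplasmic transducers passed in 2MUT, both higher, or 16.7% beside 33.8% of all genes, while the median log2 fold change of the 12 was -0.18. With 2-HG 0 passed by limma, where 2 had an unadjusted p under 0.05 and edgeR called 1. The calls in 2MUT were Ctnnb1, which encodes β-catenin, from 553 ± 64.5 RPM to 700 ± 29.4 RPM (SD, n = 3 each), and the kinase gene Csnk1a1, with log2 fold changes of 0.35 and 0.26 (limma, adjusted p = 0.02 and 0.035); both were named after their values were seen. Of 12 TCF/LEF factors and co-factors, 4 were higher and 4 were lower in 2MUT, and 1 was higher and 7 were lower with 2-HG. Of all genes tested, 16.5% were higher and 17.3% lower in 2MUT, and 16.1% and 16.7% with 2-HG. Lef1 was 6.07, 7.69 and 8.2 RPM in Control and 15.4, 19.5 and 15.7 RPM in 2MUT. It rose by 1.10 on the log2 scale in 2MUT and had a log2 fold change of -0.73 with 2-HG (limma, adjusted p = 0.00092 and 0.017). The call with 2-HG was lost in limma's test without the first (adjusted p = 0.054) or the third 2-HG(-) library (adjusted p = 0.073). It was also lost with the unmoderated test (adjusted p = 0.1).

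Tcf7 changed the other way, with 12.3 ± 0.38 RPM in Control against 4.33 ± 1.35 RPM in 2MUT, and 1.07 ± 0.138 RPM in 2-HG(-) against 2.48 ± 0.664 RPM in 2-HG(+) (SD, n = 3 each). Its log2 fold changes were -1.35 and 0.74 (limma, adjusted p = 0.00074 and 0.0095). Pygo1, a co-activator of β-catenin, rose in 2MUT from 20.4 to 49.7 RPM (log2 fold change 1.25, limma adjusted p = 6.7e-05), with 0.06 for 2-HG (limma adjusted p = 0.81). Of the β-catenin co-activators Bcl9 and Bcl9l, Bcl9 fell by 0.38 and 0.49, whereas Bcl9l rose by 0.46 in 2MUT and had a log2 fold change of -0.44 with 2-HG (limma, adjusted p between 0.0018 and 0.01). The co-repressor gene Tle2 fell by 0.59 in 2MUT (limma adjusted p = 0.045), a call lost in 5 of 6 fits without a library, and by 1.09 with 2-HG (limma adjusted p = 0.00057). The 2MUT call was also lost with DESeq2 (adjusted p = 0.06), with no filter on low values (limma adjusted p = 0.11) and with the unmoderated test (adjusted p = 0.11).

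Genes listed as Wnt targets passed in both directions in each comparison. Of 12 such genes including Axin2 (Lef1, Notum and Lgr5, also known as targets, are counted under other roles), 8 were tested in each comparison, and 2 were higher and 2 were lower in each, or 50% beside 33.8% of all genes in 2MUT and 32.8% with 2-HG. In 2MUT, Wisp1 rose from 31.1 to 64.3 RPM, while Ccnd1, which encodes cyclin D1, fell from 33.5 ± 4.61 RPM to 10.7 ± 0.717 RPM (SD, n = 3 each). Their log2 fold changes were 1.03 and -1.55 (limma, adjusted p = 0.00015 and 3.8e-05). Cd44, named after its values were seen, was the other target that fell, by 0.79 (limma adjusted p = 7.4e-05). The R-spondin receptor gene Lgr5, also chosen after its values were seen, was 0.296, 0.855 and 0.137 RPM in Control and 4.02, 3.81 and 2.34 RPM in 2MUT. It passed the filter only through the 2MUT libraries, so these levels are given as a description.

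With 2-HG, Wisp2 showed the largest fall among the tested targets, from 47.7 ± 4.19 RPM to 12.1 ± 1.39 RPM (SD, n = 3 each; log2 fold change -1.89, limma adjusted p = 8.2e-06). Myc rose from 77.8 to 137 RPM and Wisp1 from 56 to 86.1 RPM, with log2 fold changes of 0.80 and 0.63 (limma, adjusted p = 0.001 and 0.016). The call of Wisp1 was lost without the second 2-HG(+) library (limma adjusted p = 0.053) and with the unmoderated test (adjusted p = 0.12). Ccnd1 had a log2 fold change of -0.05 with 2-HG (limma adjusted p = 0.79), and the direct targets Nkd1, Nkd2 and Sp5, also named after their values were seen, were under the filter in both experiments.

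The genes most like Axin2 and Sfrp1, the tested genes of the 10 with the largest log2 fold change in each comparison, were sought among 6729 genes that averaged 10 RPM or more in both tables, by Pearson's correlation of log2(RPM + 1) over the 12 libraries after the mean of each table was subtracted. For Axin2 these were Tnfrsf23 (r = 0.983), Pdpn (r = 0.98) and Cryab (r = 0.979), with log2 fold changes of 4.34, 0.72 and 2.35 in 2MUT and -0.12, -0.06 and -0.31 with 2-HG, of which that of Cryab passed the threshold with 2-HG (limma adjusted p = 0.031). For Sfrp1 these were Tnrc18 (r = 0.992), Plscr2 (r = 0.99) and Tgfbr3 (r = 0.985), with log2 fold changes of 0.71, 1.40 and 0.62 in 2MUT and -1.19, -1.62 and -0.96 with 2-HG. The correlations rest on the group differences of the same 12 libraries and are given as a description.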

How the data were processed

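The authors prepared Ion AmpliSeq libraries, in which 1 short target per transcript is amplified, so levels are not compared between genes. They aligned reads with TMAP to the AmpliSeq mouse reference and used the AmpliSeqRNA plug-in for counting. The authors deposited RPM, 1 table per experiment, each library of which sums to 1000000 within rounding. The use of strand in counting and the genome build are not given in the sources used here. Dividing RPM by the value of a single read gave whole numbers for 100% of entries (tolerance 0.02 reads), hence the depths and reads; edgeR on these reads called 1817 genes higher and 1947 lower in 2MUT, and 1794 and 1752 with 2-HG. Replicate libraries differed by more than sampling noise (chi-square per degree of freedom 5.88 to 33.1). Date-like names (27 in each of the tables) and 4 entries with a repeated name were found and left out of the test of the difference. Columns of no sample numbered 0.

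Tests were made with limma 3.58.1 (R 4.3.3), with the trend option, on values of log2(RPM + 1), at a mean of at least 1 RPM over the 6 libraries of a comparison. The 1 RPM added understates changes of low genes. The difference between comparisons was a contrast over 12 libraries. Benjamini-Hochberg adjustment covered all genes tested. The study used an unmoderated test per gene. A test of that kind was kept as an alternative, with edgeR 4.0.16 and DESeq2 1.42.0 on recovered reads. Simulated data covered 11089 genes of the 2MUT comparison and 10372 of the 2-HG comparison. In the former the test recovered 86 of 98 genes changed by 1 on the log2 scale. It called 13 of 10893 unchanged genes. In the latter it recovered 96 of 99 and called 9 of 10173. The simulation gave every gene the same spread beyond sampling noise, with independent libraries, so these rates need not hold for the real libraries. Named genes are the 10 members; of the wider list, the 4 largest rises and falls per comparison past the threshold without overlap and with 10 RPM or more in the higher group, and genes called in both comparisons; others are marked as named after their values were seen. The members and lists were chosen with earlier results of these data known. Coordinates are from GENCODE M21 on GRCm38.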

Additional observations from a re-analysis of the deposited data

Results flagged for a closer look

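For 5 of the 7 genes tested in both, the change in 2MUT differed from the change with 2-HG by limma's test of the difference over the 12 libraries. That test called 39.4% of all 9594 genes, 19.9% in the higher direction like these 5. The change in 2MUT minus that with 2-HG was 3.85 for Sfrp1 (adjusted p = 7.3e-08), 2.53 for Axin2 (adjusted p = 1.1e-06), 1.59 for Fzd2 (adjusted p = 0.0063), 1.44 for Fzd1 (adjusted p = 0.0007) and 0.73 for Lrp6 (adjusted p = 0.014), all on the log2 scale by limma. Sfrp1 passed the threshold in both comparisons with opposite signs, Axin2 and Lrp6 passed in 2MUT alone, Lrp6 in 8 of 16 other settings, and Fzd1 and Fzd2 passed with 2-HG alone. The comparisons differ in duration, vector, solvent and table, which cannot be told apart.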

How the results depend on the processing

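Of the 16 other settings per comparison at most, Sfrp1 and Axin2 in 2MUT (log2 fold changes 1.38 to 1.71 and 2.18 to 2.44) and Wnt5a, Sfrp1 and Fzd1 with 2-HG kept their direction and their call in all. The unmoderated test, applied to the filtered values used here, called fewer genes, 1021 higher and 1223 lower in 2MUT and 1098 and 1139 with 2-HG. The study ran a test of this kind in other software, and the gene counts it reports differ from these. With the unmoderated test, 0 of the 10 genes were lower in 2MUT and 3 with 2-HG. By that test, 10 of the wider list were higher in 2MUT and 14 lower with 2-HG. With a filter at 10 RPM, 0 of the 10 genes and 6 of the wider list were lower in 2MUT, since fewer genes were tested. With no filter, 6 of the wider list were higher with 2-HG, and 1 gene, Dkk2, was lower in the test of the difference; DESeq2 called 5 of the wider list higher with 2-HG. Apart from the fewer genes tested, the cause was not tested.

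Leaving out 1 library at a time gave 2 to 3 of the 10 genes higher and 0 to 1 lower in 2MUT, and 4 to 6 lower with 2-HG. The log2 fold change changed sign among these fits for Wnt4 (-0.28 to 0.20), Fzd1 (-0.14 to 0.32) and Wisp2 (-0.029 to 0.21) in 2MUT and for Pygo1 (-0.079 to 0.21) and Ccnd1 (-0.19 to 0.027) with 2-HG, none of which passed the threshold. Low read numbers limit Wnt4, Dkk2 and Sfrp2.

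The replicate numbers shared by the groups did not pair the libraries. Deviations of same-numbered libraries correlated at 0.07, 0.03 and 0.03 in the mutant and at -0.46, -0.16 and 0.06 in the 2-HG experiment. Those of differently numbered libraries correlated at -0.14 to 0.09 in the former and at -0.41 to 0.48 in the latter. Whether libraries of the 2-HG groups share a source of variation was not tested. With the replicate block, 1911 genes were higher and 1987 lower in 2MUT, and 1217 and 1286 with 2-HG. Of the 10 genes, 3 were higher and 1 lower in 2MUT and 5 lower with 2-HG under the block, and among the named genes the block ended the call of Wls with 2-HG (limma adjusted p = 0.064).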
